A study of Mus musculus with 6 samples.

Results

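The fibroblast growth factor (FGF) pathway was followed through 10 genes: the ligands Fgf7, Fgf9, Fgf10 and Fgf18, the receptors Fgfr1 and Fgfr2, the feedback inhibitors Spry1, Spry2 and Dusp6, and the target transcription factor Etv5. They were taken by name as ligands, receptors and feedback targets of the pathway, and all 10 were found by gene ID among the 55631 genes of the table. Bulk RNA of palatal shelves from E14.5 mouse embryos was sequenced in 3 control and 3 KO libraries. Controls had the genotype p130Casfl/fl, in which both alleles of the p130Cas gene (Bcar1) are flanked by loxP sites, and their titles call them WT. KO embryos had the same floxed alleles together with CAG-Cre, a Cre recombinase under a promoter that is active in most cell types, so a difference can arise in mesenchyme, epithelium or any other cell of the shelf. The labels name replicates but no litters or pools, so the p-values rest on the spread between these 6 samples, which may be technical.

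FGFs are secreted proteins that bind receptor tyrosine kinases with heparan sulphate as a cofactor. The receptors signal through adaptors, Ras and the ERK kinases. ERK activity induces ETS factors such as Etv5 and relieves repression by Capicua (Cic), and it also raises the pathway's own brakes, the Sprouty proteins and the ERK phosphatase Dusp6, whose transcripts are therefore widely read as a gauge of FGF activity. In the palatal shelf, Fgf10 and Fgf7 come from the mesenchyme and act on the epithelial splice form of Fgfr2, which sustains Shh in the epithelium, and Shh signals back to the mesenchyme. The gene-level values used here do not separate splice forms.

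Upstream sequences of feedback and target genes are shown because their transcripts are read here as a gauge of the pathway. RefSeq windows (build GRCm38.p6) were matched for 9 of the 10 genes. The 250 bases before each start site were searched on both strands for TGAATG, 1 form of the core of Capicua binding sites. They were also searched for the ETS sequence CCGGAA, the AP-1 sequence TGANTCA and the GC box GGGCGG. Other forms of the Capicua core were not searched. TGAATG was chosen after the sequences had been seen. Capitals mark TGAATG or, for a match on the other strand, CATTCA. Dusp6 lies at chr10:99262981-99263230 on the plus strand, Etv5 at chr16:22438369-22438618 on the minus strand, upstream of an internal start site within an intron of the gene, and Spry2 at chr14:105896820-105897069 on the minus strand.
Dusp6: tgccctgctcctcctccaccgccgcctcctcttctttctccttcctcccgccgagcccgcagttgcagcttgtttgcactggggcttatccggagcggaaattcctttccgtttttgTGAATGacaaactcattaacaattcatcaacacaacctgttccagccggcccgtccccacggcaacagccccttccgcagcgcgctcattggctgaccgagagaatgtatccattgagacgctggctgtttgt
Etv5: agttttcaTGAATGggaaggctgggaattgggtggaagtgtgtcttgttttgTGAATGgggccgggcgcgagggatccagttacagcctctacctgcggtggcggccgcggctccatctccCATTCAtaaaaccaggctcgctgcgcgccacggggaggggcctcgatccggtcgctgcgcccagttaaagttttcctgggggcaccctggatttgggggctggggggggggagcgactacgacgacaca
Spry2: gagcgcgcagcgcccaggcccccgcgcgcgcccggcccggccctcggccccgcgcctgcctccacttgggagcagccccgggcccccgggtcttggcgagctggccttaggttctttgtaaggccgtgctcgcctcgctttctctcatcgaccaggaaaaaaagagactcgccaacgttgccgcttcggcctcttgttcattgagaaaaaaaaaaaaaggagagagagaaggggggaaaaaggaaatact
Dusp6 held 1 TGAATG, from 133 to 128 bases before its start site. Etv5 held 3 in this window, whose transcribed part was not found in a GENCODE transcript, and 0 in the window of its outer start site. Of that outer window, 149 bases lie in Etv5 exon. Spry2 and Spry1 held 0 matches to TGAATG, which does not show that they lack a Capicua site. The whole Spry1 window lies in exon of the predicted gene Gm42922. The transcribed part of the Fgfr2 window was also not found in a GENCODE transcript. The Fgf9, Fgf10 and Fgfr2 windows lie inside the spans of their genes. TGAATG was found in 10.9% of all 32817 windows of this length, and among the FGF genes also once in Fgf7. CCGGAA, present in 12.0% of all windows, and TGANTCA, present in 6.75%, had no match in any window of the 9 genes searched. The GC box was found in Fgf10, Fgf18, Spry1 and the outer Etv5 window, against 32.7% of all windows. A match is only a match of letters, for TGAATG of part of a site only, and none of these windows was measured for binding.

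Markers of palatal mesenchyme and epithelium were found in every library. The 10 palatal mesenchyme markers, among them Osr2, Msx1 and Pdgfra, were above 0 in all 6 libraries and summed to between 1195 and 1506 FPKM. The 12 epithelial markers were also above 0 in every library and summed to between 326 FPKM in KO replicate 3 and 576 FPKM in KO replicate 2. Skeletal muscle, bone and erythroid markers were above 0 in every library too. They summed to 306 to 541, 319 to 706 and 9232 to 22348 FPKM. Values above 0 thus do not identify the tissue, which is known from the labels. FPKM summed to between 384979 and 424993 per library over all genes, and the sequencing depth is unknown. Leukocyte markers had 6 of 7 tested genes higher in KO at an unadjusted p under 0.05, a threshold passed by 4.01% of all tested genes in either direction, and 0 called (limma, smallest adjusted p = 0.152). Bcar1 itself had control values of 1.80, 1.97 and 2.09 FPKM, all above the KO values of 1.69, 1.69 and 1.31 FPKM (limma, adjusted p = 1.00; exact two-sided permutation p = 0.1, the smallest that 20 assignments allow). Reads from exons that Cre leaves in place could still count toward this value, which limits it as a check of the labels. The extent of the deletion in these samples was not tested, so KO here names the labelled group.

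None of the 10 FGF genes was called between genotypes. Limma on log2(FPKM + 1) across the 14714 genes averaging 1 FPKM or more called 0 of 10 at a Benjamini-Hochberg adjusted p under 0.05, and also found 0 of 10 at an unadjusted p under 0.05. Over all genes, 0.326% were called higher in KO, 0.00680% were called lower and 4.01% had an unadjusted p under 0.05. The ranges of the 2 groups overlapped for each of the 10 genes, whereas they did not overlap for 9.06% of all tested genes. The median log2 fold change of the 10 genes was -0.01, beside -0.02 over all genes, with 4 genes above 0 and 6 below. For the 9 genes other than Fgf18, the 95% intervals of the fold change on the FPKM + 1 scale stayed between 0.773 and 1.28, so that a larger change of any of them lies outside its interval.

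**Figure D1:**
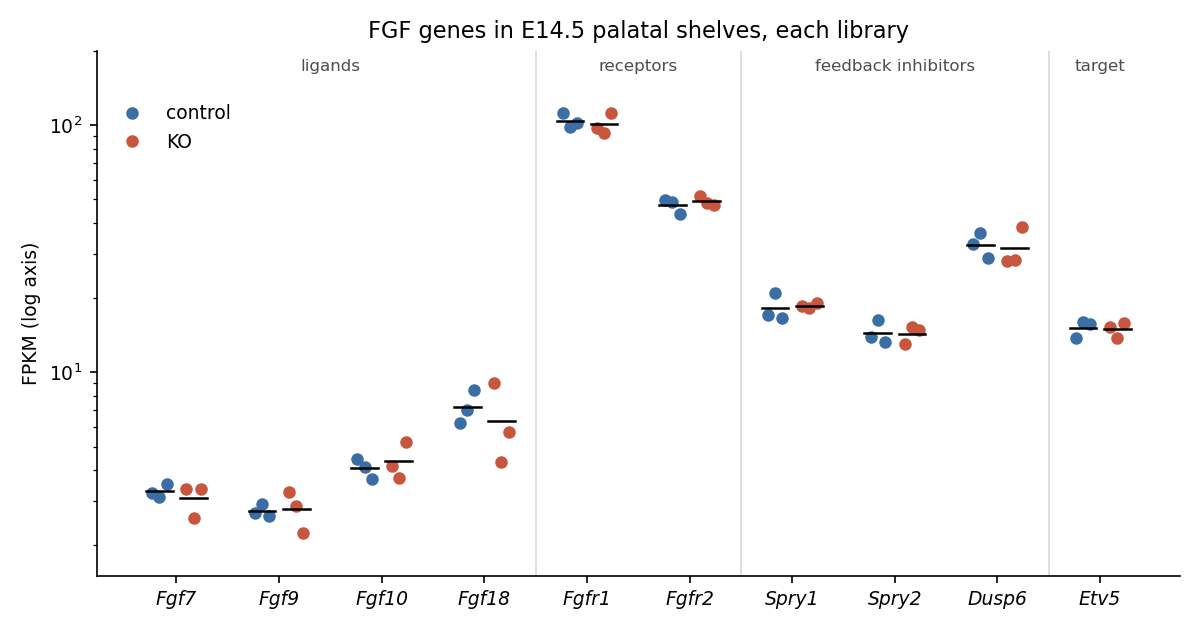
FPKM (log axis) of the 10 FGF genes in each of the 3 control (blue) and 3 KO (red) libraries, with black bars at group means. Control and KO points overlap for every gene, and Fgfr1 is the most abundant at 92.6 to 112 FPKM.

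The 10 genes covered a wide span of levels. Per length, Fgfr1 had a mean of 103 FPKM over the 6 libraries, followed by Fgfr2 at 48.3, Dusp6 at 32.3, Spry1 at 18.4, Etv5 at 15.0, Spry2 at 14.4, Fgf18 at 6.80, Fgf10 at 4.23, Fgf7 at 3.20 and Fgf9 at 2.77 FPKM. Both receptors were above all feedback genes, and these were above all 4 ligands, in every library. Among neighbours in this order, Etv5 and Spry2, Fgf18 and Fgf10, and Fgf7 and Fgf9 had overlapping ranges, while the other neighbours did not. Fgf18 was nonetheless above Fgf10 within each of the 6 libraries, and Fgf7 above Fgf9 in 5 of them. Etv5 was above Spry2 in 3 of 6.

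Of the mesenchymal ligands, Fgf10 (chr13:118669791-118792115, plus strand), the growth factor whose loss in mice leaves the palate cleft, was at 4.46, 4.12 and 3.71 FPKM in control replicates 1 to 3. The KO replicates 1 to 3 were at 4.18, 3.72 and 5.21 FPKM. KO replicate 3 was the highest library, and the other 2 KO libraries lay within the control range. The log2 fold change was 0.07 ± 0.12 (SE), with a 95% interval from -0.21 to 0.35 (limma, adjusted p = 1.00). A short exonic overlap of 123 bp with the antisense gene Gm16263 could add reads if strand was not used in counting.

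Fgf7 (chr2:126034658-126091185, plus strand), or keratinocyte growth factor, the close relative of Fgf10 that acts on the same epithelial receptor form, was at 3.25, 3.12 and 3.54 FPKM in control libraries and 3.35, 2.57 and 3.37 FPKM in KO libraries. KO replicate 2 was the lowest, and the other KO libraries fell among the controls. Limma gave a log2 fold change of -0.08 ± 0.11 (SE; 95% interval -0.33 to 0.18). The ratio of Fgf10 to Fgf7 within a library was 1.25 ± 0.175 in control and 1.41 ± 0.152 in KO libraries (SD, n = 3 each; exact two-sided permutation p = 0.3).

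Fgf9 (chr14:58070547-58112720, plus strand), a ligand of epithelial and mesothelial tissues that acts mainly on mesenchymal receptor forms, was the lowest of the 10. Its control values of 2.70, 2.93 and 2.61 FPKM lay inside the KO range of 3.26, 2.87 and 2.23 FPKM. The log2 fold change was 0.01 ± 0.12 (SE; 95% interval -0.28 to 0.29). Because a pseudocount narrows the interval of low genes, it was also computed with a pseudocount of 0.1, which gave -0.37 to 0.38 for Fgf9, -0.43 to 0.23 for Fgf7 and -0.26 to 0.42 for Fgf10.

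Fgf18 (chr11:33117430-33147400, minus strand), a ligand of skeletal growth made around cartilage and forming bone, varied most. Control replicates 1 to 3 had 6.24, 7.01 and 8.49 FPKM, and KO replicates 1 to 3 had 9.01, 4.31 and 5.72 FPKM. The KO group thus held both the highest library and the 2 lowest. Its coefficient of variation over the 6 libraries was 25.9%, against 5.74% to 14.2% for the other 9 genes. Limma gave a log2 fold change of -0.21 ± 0.22 (SE), with a 95% interval from -0.72 to 0.30 (limma, adjusted p = 1.00), and this estimate turned on single libraries. It was -0.46 without KO replicate 1 (unadjusted p = 0.0227, adjusted p = 1.00), 0.00 without KO replicate 2 and 0.04 with library weights.

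Cartilage markers differed between libraries in a like order. The 10 markers, Col2a1, Acan and Matn1 among them, had sums of 295, 257 and 540 FPKM in the controls, in replicate order, against 630, 148 and 132 FPKM in the KO libraries, and 9 of the 10 were above 0 in every library, the exception being Snorc. The libraries with the highest cartilage sums, KO replicate 1 and control replicate 3, also had the highest Fgf18. Across the 6 libraries, Fgf18 and the mean log2 cartilage level had Pearson's r = 0.90 (exact permutation p = 0.0236, adjusted p = 0.393) and Spearman's rho = 0.89 (exact permutation p = 0.0333, adjusted p = 0.6). Without KO replicates 1 and 3, the libraries farthest from the median cartilage level, r was 0.95. Neural and glial markers gave nearly the same values for Fgf18 (r = 0.87, exact permutation p = 0.0250, adjusted p = 0.393; rho = 0.89, exact permutation p = 0.0333, adjusted p = 0.6; r = 0.93 without control replicate 3 and KO replicate 3). Bone markers went the other way, with r = -0.68 (exact permutation p = 0.133, adjusted p = 0.743) and rho = -0.77 for Fgf18. The part of tissue composition in the Fgf18 values was not tested, and in bulk samples fewer cells of a type and less RNA per cell cannot be told apart.

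Fgf10 followed the mean log2 level of the palatal mesenchyme markers closely. Over the 6 libraries its level and the mean log2 level of the 10 markers had r = 0.99 (exact permutation p = 0.00139, the smallest that 720 pairings allow; adjusted p = 0.125) and rho = 1.00 (exact permutation p = 0.00278, adjusted p = 0.25), and r stayed at 0.99 without control replicate 1 and KO replicate 3. Control replicate 3 and KO replicate 2 were lowest in both measures, and KO replicate 3 was highest. The order depended on how the markers were summarized. By summed FPKM, KO replicate 2 was again lowest at 1195 and KO replicate 3 highest at 1506. Control replicate 3, at 1365 FPKM, was then above control replicates 1 and 2, at 1340 and 1312 FPKM. The other mesenchymal ligand, Fgf7, had only r = 0.33 and rho = 0.09 with these markers. Fgf7 was lower where the 7 erythroid markers were higher (r = -0.95, exact permutation p = 0.00278, adjusted p = 0.125; rho = -0.94, exact permutation p = 0.0167, adjusted p = 0.5), with r = -0.95 also without control replicate 2 and KO replicate 2. In all, 90 relations were computed, each of the 10 genes against 9 marker lists, and 8 had an unadjusted exact permutation p under 0.05 for r. The other 4 of these 8 were Fgf7 with epithelium and with endothelium, Fgfr1 with mesenchyme and Fgfr2 with skeletal muscle. Without the 2 libraries farthest from the median of the marker level, r went from -0.86 to -0.98 for Fgf7 with epithelium, but from 0.94 to -0.79 for Fgf7 with endothelium, from 0.82 to -0.02 for Fgfr1 and from -0.85 to -0.32 for Fgfr2, so that the last 3 rested on those libraries. No relation passed after adjustment over the 90. With only 3 libraries per genotype, relations within a genotype were not computed. The 6 points share FPKM scaling within each library, so that a change of 1 cell type moves the values of all others.

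**Figure D2:**
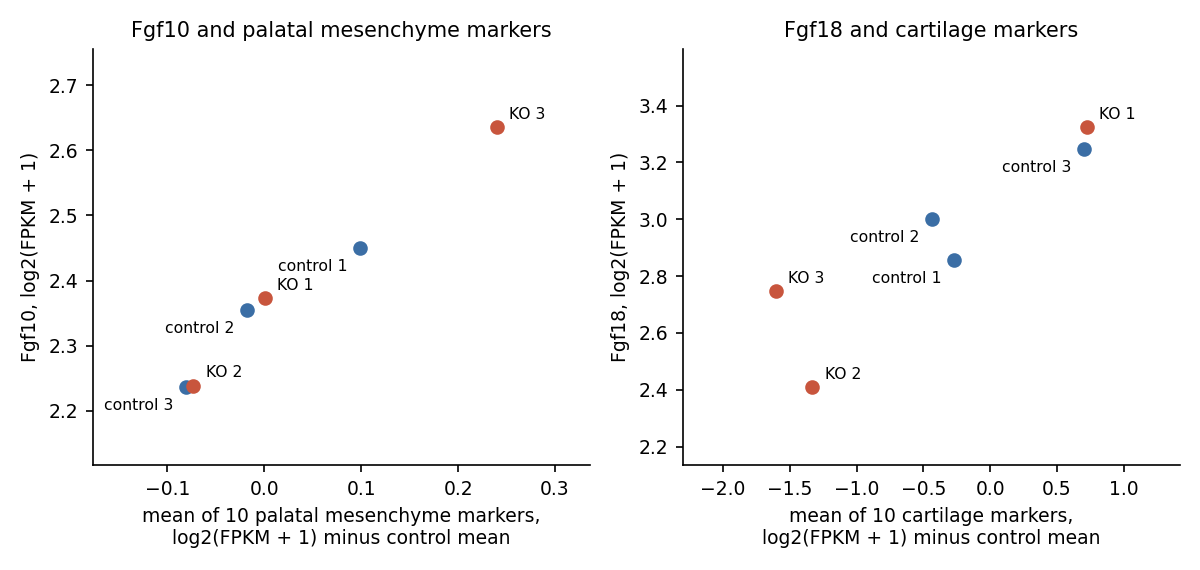
Each point is 1 library (blue control, red KO), with Fgf10 against the mean of 10 palatal mesenchyme markers on the left and Fgf18 against the mean of 10 cartilage markers on the right, all in log2(FPKM + 1), with markers set relative to the control mean. KO replicate 3 is highest for Fgf10 and mesenchyme, and KO replicate 1 and control replicate 3 are highest for Fgf18 and cartilage.

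Fgfr2 varied least of the 10 genes, with a coefficient of variation of 5.74% over the 6 libraries, and Fgfr1 had 7.87%. Fgfr1 (chr8:25513654-25575718, plus strand), whose mesenchymal form carries much of the FGF signal of facial mesenchyme, was at 112, 98.5 and 102 FPKM in control libraries and at 97.3, 92.6 and 112 FPKM in KO libraries. The highest library of each group had 112 FPKM. The log2 fold change was -0.05 ± 0.09 (SE; 95% interval -0.26 to 0.15).

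Fgfr2, the receptor whose epithelial form answers Fgf10 and Fgf7, was at 49.8, 48.7 and 43.5 FPKM in control libraries and 51.8, 48.4 and 47.6 FPKM in KO libraries. Control replicate 3 was the lowest, and the 3 KO libraries lay close together. Limma gave a log2 fold change of 0.06 ± 0.07 (SE; 95% interval -0.11 to 0.22). Its GENCODE gene model on the minus strand of chromosome 7 runs from 130162451 to 133123350 and shares 314 bp of exon with Ctbp2, so the level depends on which annotation was used. The Fgfr1 to Fgfr2 ratio within a library was 2.21 ± 0.170 in control and 2.05 ± 0.266 in KO libraries (SD, n = 3 each; exact two-sided permutation p = 0.3). Esrp1 and Esrp2, the epithelial splicing factors that favour the epithelial receptor form, were named after their values were seen. Esrp1 lay between 11.3 FPKM in KO replicate 3 and 16.8 FPKM in KO replicate 2, and Esrp2 between 6.48 and 10.2 FPKM in the same 2 libraries, which also had the lowest and the highest epithelial sums.

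Feedback inhibitors were read as a gauge of pathway activity, though neither FGF signalling nor ERK activity was measured. Dusp6 (chr10:99263231-99267489, plus strand), the phosphatase that switches off ERK in the cytoplasm and whose upstream sequence is printed above, was at 33.0, 36.5 and 28.9 FPKM in control replicates 1 to 3. It was at 28.1, 28.5 and 38.8 FPKM in KO replicates 1 to 3. KO replicates 1 and 2 were the lowest libraries and KO replicate 3 the highest. The log2 fold change was -0.05 ± 0.14 (SE; 95% interval -0.37 to 0.27), and it was -0.20 without KO replicate 3 and 0.03 without KO replicate 1.

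Spry1 (chr3:37639947-37644598, plus strand), a Sprouty protein that blocks receptor signalling to Ras, was at 17.1, 20.9 and 16.5 FPKM in control libraries and at 18.5, 18.2 and 19.1 FPKM in KO libraries. All 3 KO values fell inside the control range. Its log2 fold change was 0.04 ± 0.09 (SE; 95% interval -0.18 to 0.25), and the predicted gene Gm42922 on the other strand shares 710 bp with its exons. Spry2 (chr14:105891947-105896819, minus strand), the other Sprouty of the set, was at 13.9, 16.3 and 13.2 FPKM in control libraries and at 13.0, 15.2 and 14.8 FPKM in KO libraries. Control replicate 2 was highest for both Sprouty genes. The log2 fold change of Spry2 was -0.01 ± 0.10 (SE; 95% interval -0.24 to 0.21). The Spry1 to Spry2 ratio was 1.26 ± 0.0244 in control and 1.30 ± 0.115 in KO libraries (SD, n = 3 each; exact two-sided permutation p = 0.6).

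Etv5 (chr16:22381309-22439719, minus strand), an ETS transcription factor of the PEA3 family that FGF signalling induces, was at 13.8, 15.9 and 15.6 FPKM in control libraries and 15.2, 13.7 and 15.8 FPKM in KO libraries. Its lowest values, in control replicate 1 and KO replicate 2, came from both genotypes. Limma gave a log2 fold change of -0.02 ± 0.08 (SE), with a 95% interval from -0.21 to 0.17 (limma, adjusted p = 1.00). The Dusp6 to Etv5 ratio was 2.18 ± 0.289 in control and 2.13 ± 0.315 in KO libraries (SD, n = 3 each; exact two-sided permutation p = 0.9). Averaged over Dusp6, Spry1, Spry2 and Etv5, the log2 level relative to the control mean was -0.06, 0.15 and -0.09 in control replicates 1 to 3 and -0.08, -0.06 and 0.10 in KO replicates 1 to 3. Control replicate 2 and KO replicate 3 were the high libraries, so this mean spread over a like range in both genotypes.

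**Figure D3:**
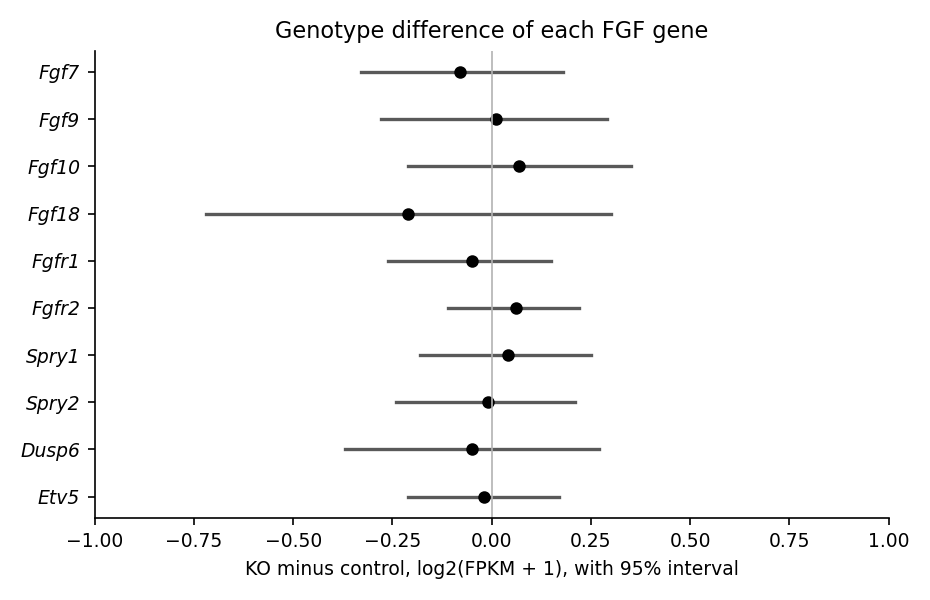
Difference between KO and control means of log2(FPKM + 1) for the 10 FGF genes (points) with 95% intervals from limma (lines, n = 3 per group). All 10 intervals include 0, and that of Fgf18, from -0.72 to 0.30, is the widest.

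Other genes of the pathway were counted by role, and none was called either. Of 104 genes listed, 89 were tested, 0 were called higher and 0 lower in limma, and 3 had an unadjusted p under 0.05, beside 4.01% of all tested genes. These were 1 in each of the FGF family, the receptor and partner, and the heparan sulphate lists. Their median log2 fold change was -0.02, the same as over all genes, and 37 were above 0 and 52 below. The ranges of the 2 groups did not overlap for 6 of the 89, namely Fgf20, Fgfbp3, Hs6st2, Shc1, Ets1 and Ets2, beside 9.06% of all tested genes. Fgf20, in both counts, passed the filter on low values only through its KO mean. One listed gene, Spry3, was not matched by symbol.

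Of the 18 FGF family genes outside the main set, 8 were tested, 0 were called and the median was -0.05. They include Fgf11, Fgf12 and Fgf13, intracellular relatives that are not secreted. Fgf20, a ligand of developing teeth and hair, was at 1.16, 0.834 and 0.563 FPKM in control libraries and at 1.36, 1.47 and 1.49 FPKM in KO libraries, with no overlap, and a log2 fold change of 0.41 ± 0.14 (SE; limma, unadjusted p = 0.0185, adjusted p = 1.00). Its control mean was 0.852 FPKM, so it passed the filter at 1 FPKM only through its KO mean of 1.44 FPKM. Its p and its lack of overlap are thus not independent of the filter. Fgf3, which signals in early tooth and ear, had the lowest log2 fold change, -0.56 ± 0.32 (SE), and did not pass. It was at 2.26, 2.88 and 2.10 FPKM in control libraries and 0.995, 0.541 and 3.01 FPKM in KO libraries, so that KO replicates 1 and 2 were low and KO replicate 3 was the highest of all. For comparison, Fgf13 had a log2 fold change of -0.16 ± 0.11 (SE).

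Of the other receptors and membrane partners, 8 of 10 were tested, 0 were called and the median was -0.04. Fgfbp3, a carrier that releases FGFs from the matrix, was at 4.01, 3.55 and 3.38 FPKM in control libraries and at 2.70, 3.04 and 2.48 FPKM in KO libraries, all below the controls (log2 fold change -0.31 ± 0.10, SE; limma, unadjusted p = 0.0158, adjusted p = 1.00). Its relative Fgfbp1 ran from 2.34 to 4.53 FPKM in control and from 3.21 to 5.47 FPKM in KO libraries, and Fgfr4 from 3.90 to 5.68 and from 3.53 to 4.95 FPKM. Both overlapped between groups.

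Heparan sulphate proteoglycans and the enzymes that build or trim their chains had 21 of 22 genes tested, 0 called and a median of -0.01. Hs6st2, a sulphotransferase of these chains, was at 14.3, 14.2 and 12.8 FPKM in control libraries and at 16.0, 15.1 and 17.6 FPKM in KO libraries, again without overlap (log2 fold change 0.22 ± 0.08, SE; limma, unadjusted p = 0.0233, adjusted p = 1.00). Gpc3, the most abundant of these at 317 to 387 FPKM, and Gpc1, at 52.0 to 64.5 FPKM, had log2 fold changes of 0.14 ± 0.08 and -0.14 ± 0.08 (SE).

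The adaptors, Ras proteins and ERK cascade had log2 fold changes close to 0. Of this list, all 24 were tested, 0 were called, and their log2 fold changes lay between -0.11 and 0.09 with a median of -0.01. Shc1, an adaptor of receptor kinases, had the lowest p, at 57.1, 59.3 and 63.2 FPKM in control libraries and 55.8, 53.1 and 56.8 FPKM in KO libraries (limma, unadjusted p = 0.111). Araf, a kinase of the RAF family, had a log2 fold change of -0.10 ± 0.08 (SE).

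Feedback inhibitors and targets outside the main set had 22 of 24 genes tested, 0 called and a median of -0.03, with log2 fold changes from -0.20 to 0.17. Ets1 and Ets2, transcription factors that ERK phosphorylates, lay lower in each KO library than in any control. Ets1 was at 12.5, 11.8 and 13.6 FPKM in control libraries and 11.6, 9.86 and 11.3 FPKM in KO libraries (log2 fold change -0.20 ± 0.09, SE; limma, unadjusted p = 0.0521, adjusted p = 1.00). Ets2 was at 30.6, 27.5 and 31.2 FPKM against 27.3, 27.4 and 27.3 FPKM (limma, unadjusted p = 0.111). Endothelial markers, of a cell type known for Ets1, were all below 0 in log2 fold change, with a median of -0.17, 2 of 8 at an unadjusted p under 0.05 (4.01% of all tested genes, in either direction) and 0 called, and their part in the Ets1 values was not tested. Dusp5, a nuclear ERK phosphatase, had a log2 fold change of -0.19 ± 0.11 (SE).

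Genes named after their values were seen include Etv4, the PEA3 relative of Etv5, at 18.7, 21.1 and 14.9 FPKM in control libraries and from 13.5 FPKM in KO replicate 1 to 20.2 FPKM in KO replicate 3. Like Dusp6, it was highest in control replicate 2 and KO replicate 3 and low in KO replicates 1 and 2. Spry4, a further Sprouty, was at 6.74, 7.56 and 7.67 FPKM in control and 6.35, 5.53 and 7.31 FPKM in KO libraries. Cic, which encodes Capicua, the repressor named beside the sequences, was at 77.9, 70.6 and 71.0 FPKM in control and 69.3, 64.9 and 71.6 FPKM in KO libraries.

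**Figure D4:**
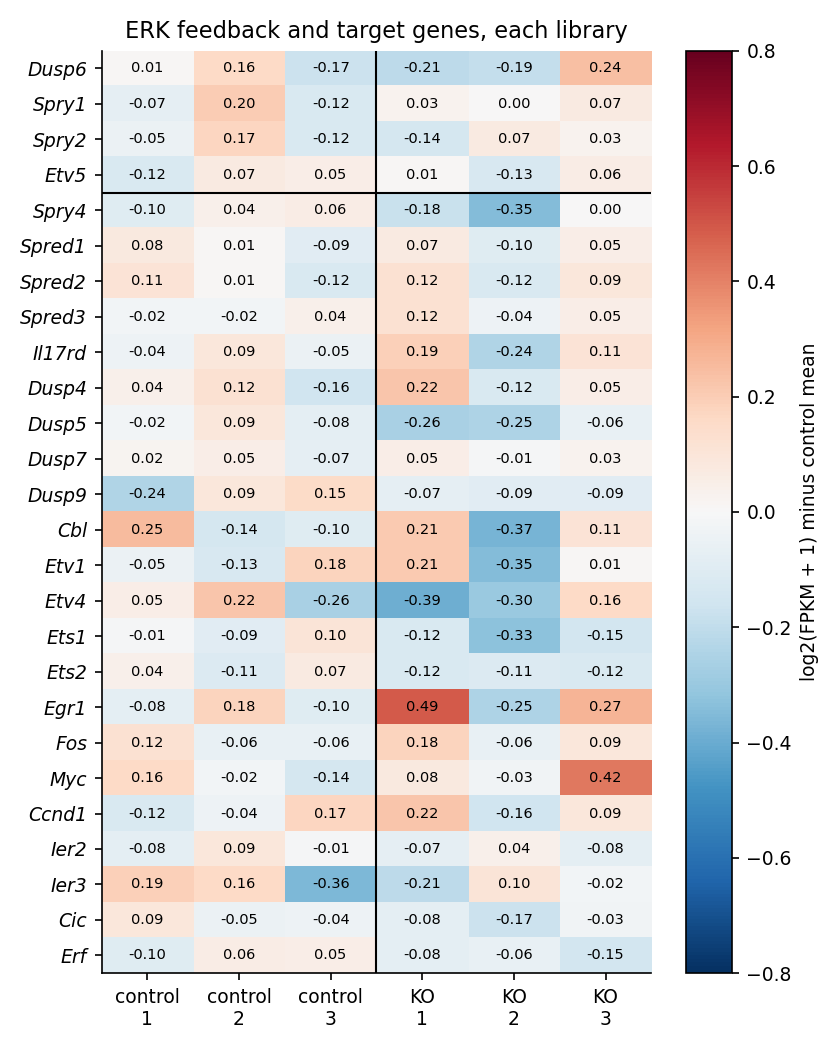
Level of Dusp6, Spry1, Spry2, Etv5 and the 22 other tested feedback and target genes in each library, as log2(FPKM + 1) minus the control mean (red higher, blue lower). Dusp6 and Etv4 are highest in control replicate 2 and KO replicate 3, while Ets1, like Ets2, Dusp5, Dusp9, Cic and Erf, is below the control mean in all 3 KO libraries.

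The Hedgehog genes that answer epithelial FGF signalling were the last group. All 6 were tested, 0 were called and the median was -0.05. Shh itself, named after its values were seen, was at 5.85, 4.95 and 4.63 FPKM in control libraries and at 4.02, 9.17 and 5.54 FPKM in KO libraries. The highest value, in KO replicate 2, came from the library with the highest epithelial marker sum, and the part of epithelium in it was not tested. Gli1, a target of Hedgehog signalling in the mesenchyme, was at 50.1, 44.9 and 44.3 FPKM in control and 40.1, 37.5 and 45.2 FPKM in KO libraries (log2 fold change -0.18 ± 0.09, SE; limma, unadjusted p = 0.0702, adjusted p = 1.00). Hhip, which binds Hedgehog ligands, had a log2 fold change of 0.29 ± 0.20 (SE).

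**Figure D5:**
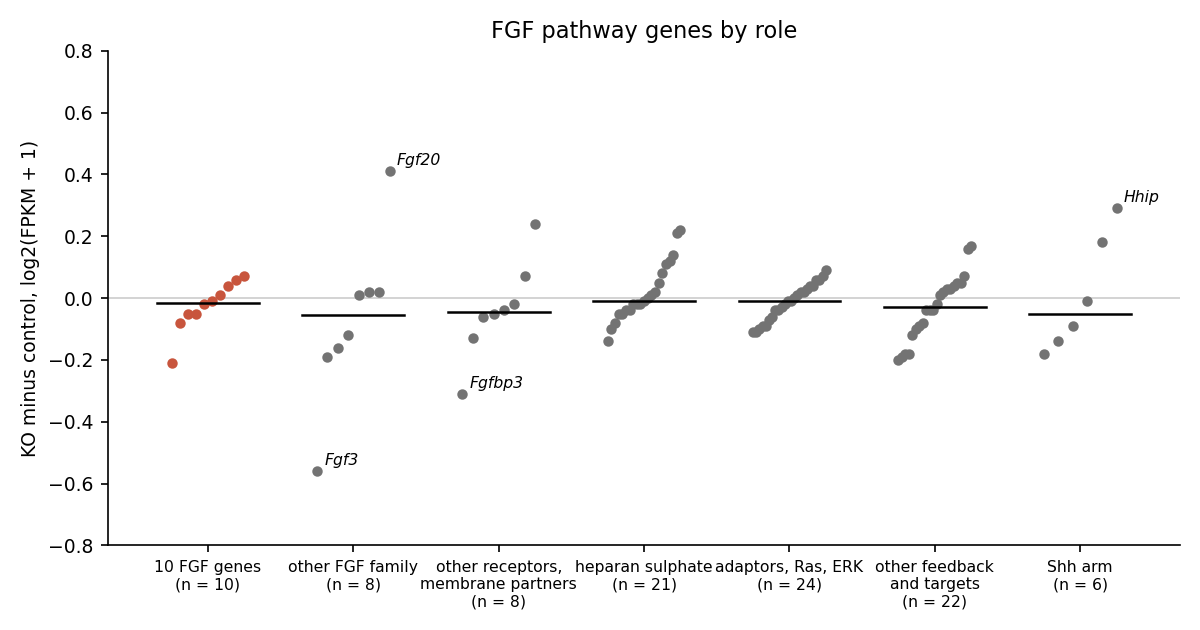
KO minus control difference in log2(FPKM + 1) for the 10 FGF genes (red) and for the 89 other tested pathway genes by role (grey), ordered within each list, with bars at list medians. List medians lie between -0.05 and -0.01, and the named points Fgf20, Fgf3, Fgfbp3 and Hhip, all uncalled, lie farthest from 0.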

How the data were processed

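The deposited values are FPKM, fragments normalized to transcript length and sequencing depth, as computed by the authors. The unit comes from the name of the deposited table. The build mm10 and DESeq2 version 1.5.2 are named in the submitters' processing notes. Aligner, counter, annotation and strandedness: not given in the sources used here. Each column carries a library name that the labels tie to 1 sample. Symbols came from a table of gene IDs, which matched 50824 IDs and left 4807 unnamed, and gene positions from the GENCODE annotation of GRCm38.

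Limma (version 3.58.1, R version 4.3.3) was run on log2(FPKM + 1) for genes averaging 1 FPKM or more, with genotype as the only term, lmFit and eBayes with a trend, two-sided tests, Benjamini-Hochberg adjustment over all 14714 tested genes and a threshold of 0.05. Intervals are limma's 95% intervals. The model was tested on simulated data. Ratios and relations between libraries used exact two-sided permutation tests.

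All 10 FGF genes are named, with the up to 3 genes of smallest p from each pathway list, and the 3 genes whose profile over libraries is most like that of the feedback genes. The members and lists were chosen with earlier results of these data known. Alternatives were a pseudocount of 0.1, no filter, a filter at 5 FPKM, median-of-ratios scaling, quantile normalization, eBayes without trend or robust, library weights, the replicate block and each library left out. Protein identities between relatives were planned and, like some single genes of the lists, are not reported here.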

Additional observations from a re-analysis of the deposited data

How the results depend on the processing

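The count of 0 called FGF genes held under each of the 9 alternative settings and each of the 6 omissions of a library, with 7 of the genes tested at a mean of at least 5 FPKM. The smallest adjusted p of any of them was 0.474, with library weights, and without KO replicate 1 the unadjusted p of 1 gene, Fgf18, fell below 0.05. Over all genes, the filter at 5 FPKM tested fewer genes and called 24 higher and 0 lower, where no filter called 67 higher and 2 lower and library weights called 66 higher and 1 lower, against 48 and 1. Leaving out a library called between 32 and 48 genes higher and between 1 and 2 lower, 2 without KO replicate 1 and without KO replicate 2. The median of the 10 genes ran from -0.05 to 0.03 over the omissions. No single gene kept the sign of its log2 fold change in every omission. Ranges were -0.20 to 0.03 for Dusp6, -0.08 to 0.04 for Etv5, -0.04 to 0.16 for Fgf10, -0.46 to 0.00 for Fgf18, -0.13 to 0.02 for Fgf7, -0.08 to 0.12 for Fgf9, -0.13 to 0.00 for Fgfr1, 0.00 to 0.10 for Fgfr2, -0.03 to 0.13 for Spry1 and -0.07 to 0.07 for Spry2. The sign also turned with library weights for Fgf18 (0.04), Fgf7 (0.00) and Spry1 (-0.04), and with median-of-ratios scaling and quantile normalization for Spry2 (0.00 in both). The cause was not tested. With the replicate block, 41 genes were called higher and 1 lower, 0 of them FGF genes. Deviations of same-numbered libraries from their group means correlated at 0.02, 0.31 and -0.24, and those of control replicate 1 and KO replicate 3 at 0.31. With 3 libraries per group, these values cannot decide whether equal numbers mark a pair. With 3 libraries per group and unknown depth, changes of a ligand at 2 to 5 FPKM inside the intervals given are not detectable.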

Other observations

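Several FGF family genes were near or below 1 FPKM in these shelves. Of the 18 family genes outside the main set, 10 had a mean under 1 FPKM and were not tested. Fgf8, a ligand of the early facial ectoderm, ran from a listed 0 in control replicate 3 and KO replicate 2 to 0.187 FPKM in control replicate 1. Fgf5 was at 0.582, 0.580 and 0.634 FPKM in control libraries and at 0.359, 0.346 and 0.181 FPKM in KO libraries, untested and without overlap. Kl and Klb, the Klotho partners that endocrine FGFs need, were listed at 0 in all 6 libraries. Fgf2, a ligand held in the matrix, ran from 3.45 to 5.37 FPKM, close to Fgf10.

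By Pearson's r with the mean log2 profile of Dusp6, Spry1, Spry2 and Etv5 over the 6 libraries, the most alike of 14494 named genes were Wnt2 (r = 0.99), Gm16062 (r = 0.99) and Paip2 (r = 0.98). Wnt2 was at 2.55, 3.27 and 2.39 FPKM in control and 2.41, 2.57 and 3.19 FPKM in KO libraries, high in control replicate 2 and KO replicate 3. These genes are the highest of many compared over few libraries, and 56 genes had r above 0.9.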
